A study of Mus musculus with 8 samples.

Results

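The axon guidance ligands and receptors described here are the 64 protein-coding genes, of 21649 in the deposited table, whose symbol names a class 3 to class 7 semaphorin, a plexin, a neuropilin, a SLIT, a ROBO, an EPH receptor, an ephrin, a netrin or an UNC5 receptor. Membership was read from the gene symbols. RNA came from fluorescence-sorted mouse cells labelled as non-vascular smooth muscle cells, with 3 libraries of bladder, 3 of intestine and 2 of lung. All the mice carried the alleles Cspg4-Dre, Acta2-CreERT and R26-GFP and received tamoxifen, which activates CreERT, in corn oil (20 mg/mL) on 3 days, at 0.75 mg for each 10 g of weight. Which cells were marked therefore rests on the Acta2 and Cspg4 promoters that drive the recombinases. The 3 tissues are the groups compared, and age and sex are not given in the labels.

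Axon guidance ligands are secreted or membrane-bound cues that attract or repel growing axons, and many of them also act on vessels, muscle and connective tissue. Secreted class 3 semaphorins are held by neuropilins and signal through plexins, whereas most membrane semaphorins bind plexins directly. SLIT proteins bind ROBO receptors, netrins bind DCC and UNC5 receptors, and ephrins bind EPH receptor tyrosine kinases on a neighbouring cell, with signals passing in both directions.

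Depth was 9.722 to 10.96 M reads in bladder, 12.03 to 13.19 M in intestine and 12.67 to 13.62 M in lung, reconstructed from the spacing of the deposited values. All values below are normalized read counts unless stated otherwise, and a count of 0 allows up to 3 reads, equal to 2.47 to 3.81 normalized counts across the libraries. All 4 defining smooth muscle markers (Acta2, Myh11, Cnn1 and Tagln) were present in every library, and Acta2 was at 2602 ± 308 in bladder (SD, n = 3), 2643 ± 214 in intestine (SD, n = 3) and 2674 ± 62.9 in lung (SD, n = 2). The 12 smooth muscle markers together were not level, with sums of 1920 to 2320 ppm of a library's summed values in bladder, 3340 to 3600 in intestine and 3600 to 3830 in lung, and 7 of 12 were higher than in bladder in each other tissue. Cspg4, whose promoter drives the Dre recombinase and which also marks mural cells, was at 412.3 ± 23.4 in bladder (SD, n = 3) and between 4045 and 4757 in every other library. Markers of other cells were present too and differed between tissues. The 12 fibroblast markers summed to 5510 to 6010 ppm in bladder, 3630 to 3910 in intestine and 2610 to 3120 in lung, and 12 of 12 were lower in intestine and in lung than in bladder. The 14 endothelial markers, of which Robo4 is also an axon guidance gene, summed to 516 to 676 ppm in bladder, 1690 to 1840 in intestine and 963 to 1040 in lung, with 13 of 14 higher in intestine than in bladder. The 12 mural cell markers summed to 1270 to 1310 ppm in bladder, 2800 to 2960 in intestine and 2650 to 2980 in lung. The 11 enteric neuron markers summed to 73.4 to 89.3 ppm in bladder, 442 to 507 in intestine and 78.6 to 136 in lung. The 9 glial markers summed to 12.9 to 19.7, 145 to 195 and 26.1 to 33.8 ppm in the same order, with Sox10 at 0 in lung. The part of these other cells in the results below was not tested, and in bulk RNA fewer cells of a type and less RNA per cell cannot be told apart.

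Differences were tested with limma on log2(value + 1), all 8 libraries in 1 fit, and a gene counted as higher or lower at a Benjamini-Hochberg adjusted p under 0.05 over the 18097 genes that reached 10 in 2 or more libraries. Of the 64 genes, 62 entered the test. The other two, Slit1 and Epha8, stayed below that level, with Slit1 between 0 and 6 in every library and Epha8 at 0 or 1 except for 24 in intestine library 2. Whether each library is a separate mouse is not stated, so p-values cover the spread between libraries, which may be technical. The 3 comparisons share libraries and are not independent of each other. Between bladder and intestine, 29 of the 62 tested genes (46.8%) were higher in intestine, against 28.7% of all genes tested, and 16 (25.8%) were lower, against 23.3%. Between bladder and lung, 16 (25.8%) were higher in lung, against 19.2%, and 24 (38.7%) were lower, against 21.8%. Between intestine and lung, 14 (22.6%) were higher in lung, against 15.9%, and 24 (38.7%) were lower, against 23.6%. Undoing the deposited scaling leaves reconstructed reads with no correction for depth, which was lowest in bladder. The median log2 difference of all genes from bladder then rose from 0.06 to 0.45 in intestine. In lung it rose from 0 to 0.48. Calls against bladder lost or gained in this setting therefore cannot be told apart from the difference in depth. With the deposited scaling undone, calls that were higher in intestine than in bladder went from 64.4% to 78.0% of all calls among these genes, beside 55.2% to 81.1% over all genes tested. For lung against bladder the change was from 40.0% to 64.1%, beside 46.7% to 80.7% over all genes. Leaving out lung library 1 moved the share that was higher in lung than in intestine from 36.8% to 27.8%, beside 40.3% to 41.0% over all genes.

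**Figure D1:**
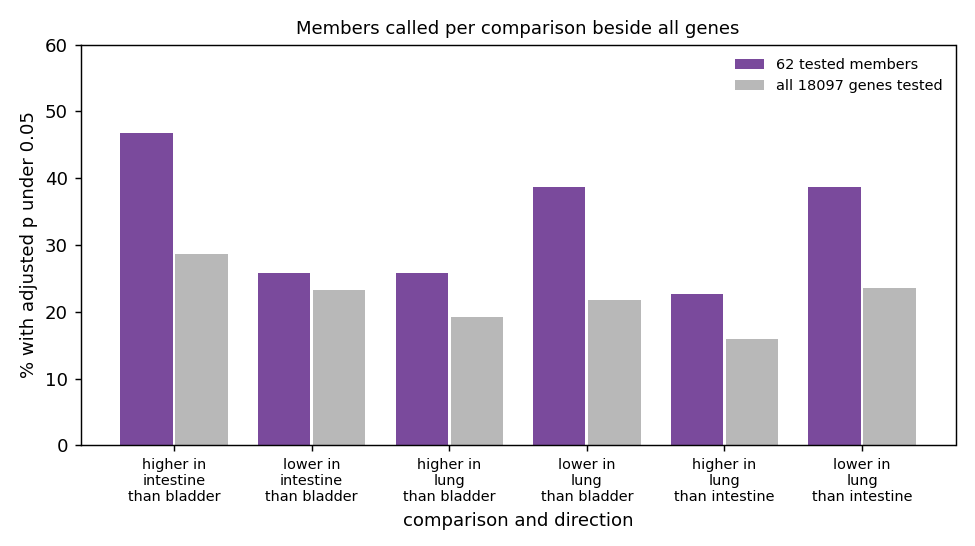
Share of genes called higher or lower (limma, adjusted p under 0.05, vertical axis in percent) in each of the 3 tissue comparisons, with the 62 tested axon guidance genes in purple and all 18097 genes tested in grey. The purple bars range from 22.6% to 46.8% and stand above the grey bars, which range from 15.9% to 28.7%, in all 6 directions.

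The F test over the 3 tissue means passed for 57 of the 62 genes, against 62.9% of all genes tested. It did not pass for Epha4, Sema4c, Plxna1, Plxna3 and Unc5a, whose limma adjusted p ranged from 0.0625 for Unc5a to 0.145 for Sema4c. The median log2 difference of the 62 genes was 0.48 for intestine minus bladder, -0.18 for lung minus bladder and -0.40 for lung minus intestine, beside 0.06, 0.00 and -0.04 over all genes tested. The median size of the difference without its sign was 0.98, 1.01 and 0.75, beside 0.57, 0.50 and 0.48. Set against bladder, 13 genes (21%, against 11.5% of all genes tested) were higher in both other tissues and 11 (17.7%, against 13.5%) were lower in both. Another 12 (19.4%, against 14.3%) were higher in intestine with no call in lung, and 9 (14.5%, against 5.56%) had no call in intestine and were lower in lung. A further 5 (8.06%, against 8.96%) were lower in intestine with no call in lung, and 3 (4.84%, against 6.79%) had no call in intestine and were higher in lung. Robo2, Epha2, Sema4a and Plxnb3 (6.45%, against 2.81%) were higher in intestine and lower in lung than in bladder. The remaining 5 (8.06%, against 35.7%), Plxna1, Plxna3, Plxnb2, Sema4c and Epha4, had no call against bladder.

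**Figure D2:**
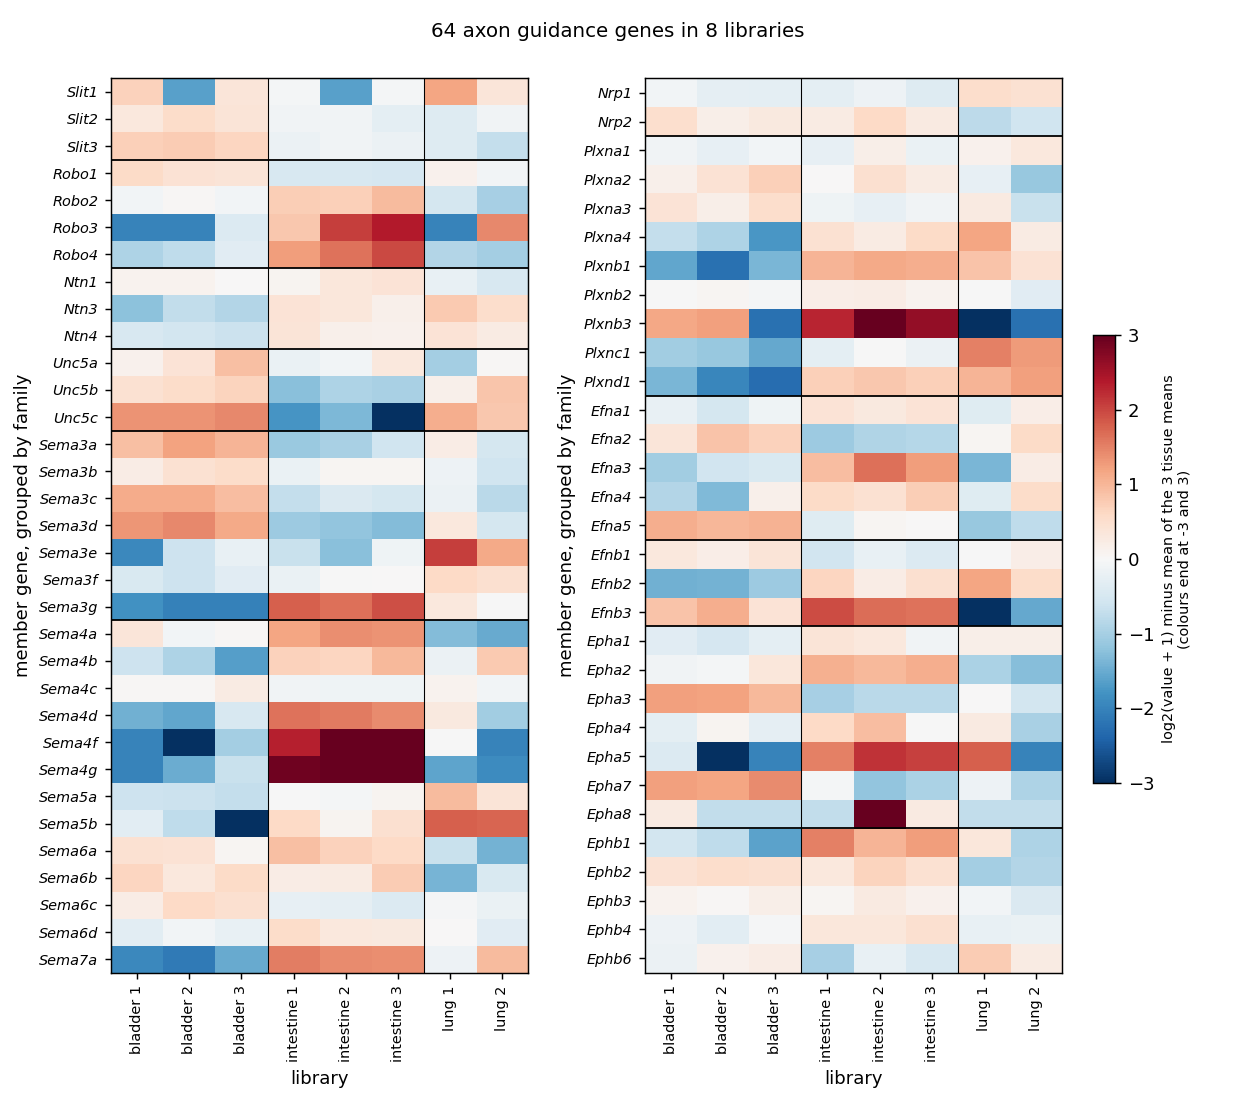
Value of each of the 64 genes (rows, grouped by family) in each of the 8 libraries (columns), as log2(value + 1) minus the mean of the 3 tissue means, with colours ending at -3 and 3. Sema3a, Sema3c, Sema3d, Epha3 and Epha7 are red in bladder, Sema4a, Sema4d, Sema4f, Sema4g and Robo4 are red in intestine, and Plxnc1 and Sema3e are red in lung.

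A gene counted as highest in a tissue when both of its differences from the other tissues passed, judged by the larger limma p after adjustment. This held for 10 genes in bladder, against 12.1% of all genes tested, for 12 in intestine, against 13.8%, and for 5 in lung, against 5.07%, which as shares of the 62 tested genes are 16.1%, 19.4% and 8.06%. The bladder genes were Slit2, Slit3, Sema3a, Sema3b, Sema3c, Sema3d, Sema6c, Efna5, Epha3 and Epha7, so 4 of the 7 class 3 semaphorins and both SLIT genes tested. With the deposited scaling undone, Slit2, Sema3b and Sema6c lost both of their calls against bladder. Sema3a then lost its call between bladder and lung. Depth is uncorrected in that setting, so these losses do not show that the calls are fragile. The intestine genes were Sema3g, Sema4a, Sema4d, Sema4f, Sema4g, Sema6d, Robo2, Robo4, Efna3, Epha2, Ephb1 and Ephb4, so 5 of the 13 membrane semaphorins. The lung genes were Sema3e, Sema3f, Sema5a, Nrp1 and Plxnc1. The lung count fell to 3 without intestine library 1 or without intestine library 2.

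**Figure D3:**
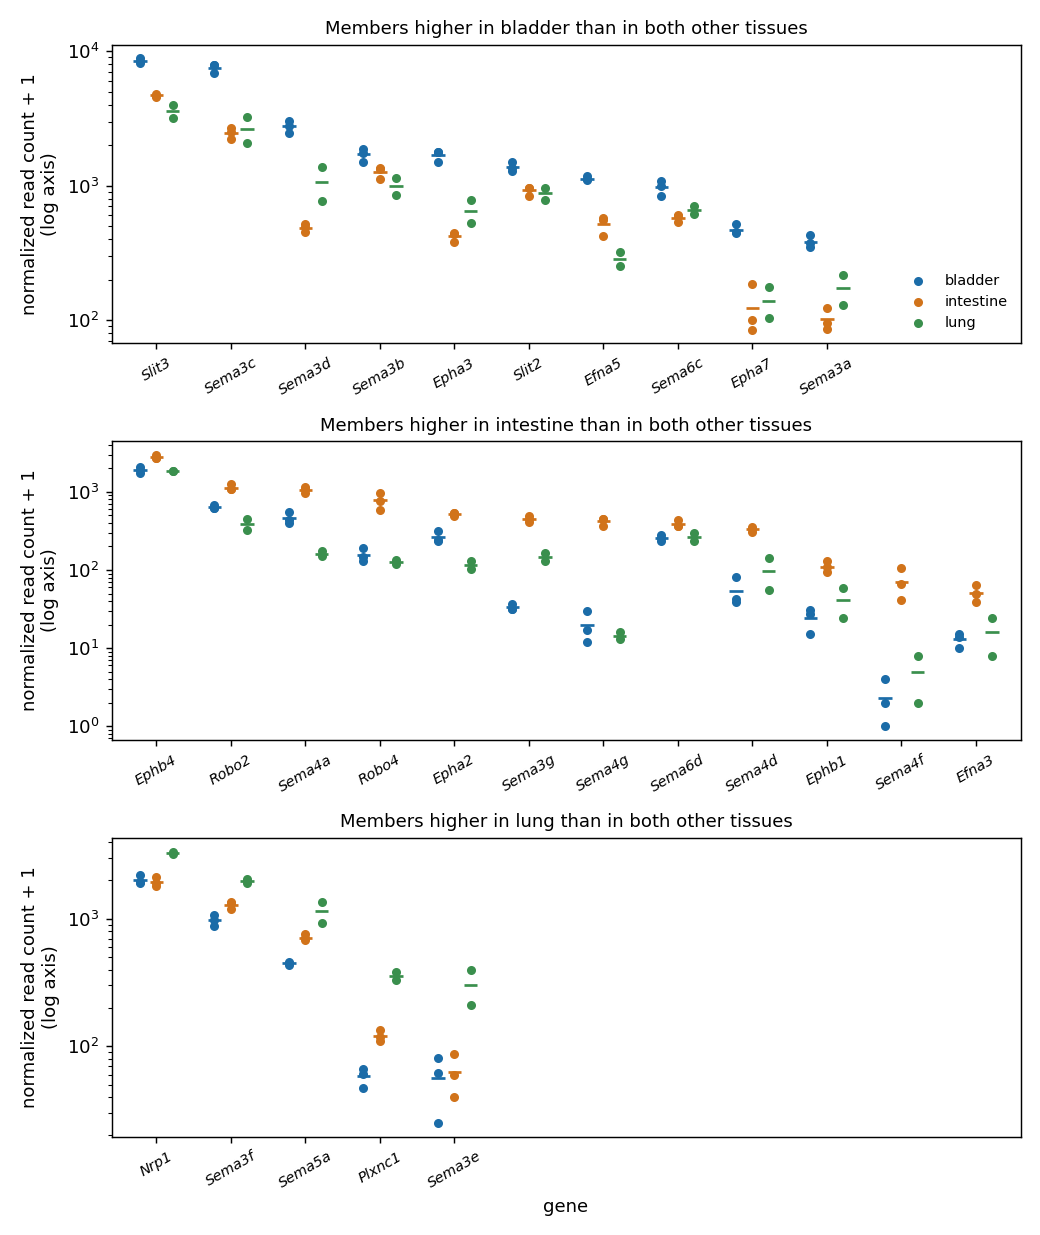
Normalized read count + 1 (vertical axes, log scale) of the genes that were higher in bladder (top), intestine (middle) or lung (bottom) than in both other tissues, with 1 point per library and a bar at the tissue mean. In the bladder panel Slit3 and Sema3c reach 8870 and 7877, in the intestine panel Sema4g stands at 364 to 448 with all other libraries at 11 to 29, and in the lung panel the 2 Nrp1 points stand at 3219 and 3366.

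The bases just upstream of the genes that led each tissue are shown so that the sequences can be read beside the values that follow. For bladder, intestine and lung in turn, they are the first 2 genes highest in that tissue, by the smaller of their differences from the other tissues, that have a single promoter entry in RefSeq. Each line gives the 250 bases before the annotated start in GRCm38.p6, 5′ to 3′ on the gene's strand, and these coordinates are not those of mm39 used elsewhere. Capitals mark matches on either strand to 6 motifs searched: GGGCGG (the GC box of Sp1-type factors), TATAAA (the TATA box), GTGGGAA (RBPJ, the factor of Notch signalling), CAGCTG (an E-box), AGATAA (bound by factors of the GATA family) and the CArG box of serum response factor. No searched motif contains another. The bladder lines are Sema3c (chr5:17574566-17574815, plus strand) and Sema3d (chr5:12382916-12383165, plus strand), the intestine lines are Sema4g (chr19:44989094-44989343, plus strand) and Sema4f (chr6:82939770-82940019, minus strand), and the lung lines are Sema3e (chr5:14025026-14025275, plus strand) and Plxnc1 (chr10:94944846-94945095, minus strand).
Sema3c: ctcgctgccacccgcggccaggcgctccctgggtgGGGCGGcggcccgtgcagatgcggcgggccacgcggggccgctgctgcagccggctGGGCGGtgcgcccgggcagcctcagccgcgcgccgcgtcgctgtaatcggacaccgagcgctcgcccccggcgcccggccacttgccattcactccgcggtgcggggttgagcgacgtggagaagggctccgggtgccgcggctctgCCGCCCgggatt
Sema3d: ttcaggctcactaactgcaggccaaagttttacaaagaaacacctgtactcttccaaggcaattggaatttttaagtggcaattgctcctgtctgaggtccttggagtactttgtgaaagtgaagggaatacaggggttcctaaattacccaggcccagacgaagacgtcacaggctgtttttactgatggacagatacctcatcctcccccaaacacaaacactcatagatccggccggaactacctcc
Sema4g: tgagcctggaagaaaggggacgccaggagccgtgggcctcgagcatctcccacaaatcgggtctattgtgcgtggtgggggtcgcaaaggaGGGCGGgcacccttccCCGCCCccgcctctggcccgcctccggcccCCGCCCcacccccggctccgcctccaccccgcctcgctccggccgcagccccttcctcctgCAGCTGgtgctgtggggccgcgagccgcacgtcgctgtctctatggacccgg
Sema4f: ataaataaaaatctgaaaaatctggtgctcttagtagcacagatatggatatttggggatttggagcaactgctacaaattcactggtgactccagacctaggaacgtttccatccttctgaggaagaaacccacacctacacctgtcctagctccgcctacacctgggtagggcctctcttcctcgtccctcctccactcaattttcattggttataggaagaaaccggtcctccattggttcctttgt
Sema3e: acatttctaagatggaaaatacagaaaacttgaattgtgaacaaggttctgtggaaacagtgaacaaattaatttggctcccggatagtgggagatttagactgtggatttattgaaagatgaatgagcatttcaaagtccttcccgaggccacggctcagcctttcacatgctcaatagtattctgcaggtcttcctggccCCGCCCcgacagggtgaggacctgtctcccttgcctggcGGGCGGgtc
Plxnc1: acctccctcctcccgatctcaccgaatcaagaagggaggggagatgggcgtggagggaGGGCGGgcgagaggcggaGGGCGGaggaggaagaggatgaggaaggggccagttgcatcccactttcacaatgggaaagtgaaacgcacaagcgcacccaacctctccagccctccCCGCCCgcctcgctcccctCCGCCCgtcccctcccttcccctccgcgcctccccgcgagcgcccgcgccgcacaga
GGGCGG was found 3 times in Sema3c, with the matches starting 215, 159 and 12 bases before the start, 3 times in Sema4g, 4 times in Plxnc1 and 2 times in Sema3e, and Sema4g also held CAGCTG 52 bases before the start. Sema3d and Sema4f held none of the 6 motifs. Among all 32851 promoters of the same length in the RefSeq table, 32.7% hold GGGCGG, 13% CAGCTG, 12.4% TATAAA, 9.99% AGATAA, 5.42% GTGGGAA and 1.47% a CArG box. Of the 64 genes, 56 had an entry, with 72 promoters, of which 70.8% held GGGCGG and 12.5% held CAGCTG. The 2 promoters shown for bladder differed from each other in base composition, with 39 CG dinucleotides and 78.4% G and C in Sema3c against 4 and 46.8% in Sema3d, and so did those for intestine, with 24 and 73.2% in Sema4g against 4 and 46.0% in Sema4f. A match is a description of letters, not of binding, and no binding was measured here.

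Secreted class 3 semaphorins were called in both directions. Against bladder, 4 of 7 (57.1%, against 23.3% of all genes) were lower and 2 (28.6%, against 28.7%) were higher in intestine, and 4 (57.1%, against 21.8%) were lower and 3 (42.9%, against 19.2%) were higher in lung. Their summed level was 1070 to 1130 ppm in bladder, 489 to 559 in intestine and 552 to 768 in lung. Sema3c (chromosome 5, 17779279 to 17935266 in mm39), a ligand for neuropilins with plexins, was the most abundant semaphorin per length on average over the 3 tissues. It had 7844, 7877 and 6923 in bladder libraries 1 to 3, 2221, 2684 and 2502 in intestine libraries 1 to 3, and 3240 and 2067 in lung libraries 1 and 2. Bladder was well above the other tissues, whose libraries overlapped each other. The log2 difference was -1.61 for intestine minus bladder (SE 0.15, limma adjusted p = 1.89e-05) and -1.54 for lung minus bladder (SE 0.16, limma adjusted p = 8.34e-05).

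Sema3d, Sema3a and Sema3c lie in separate spans of chromosome 5, and all 3 were lower in intestine than in bladder. Sema3d (12433352 to 12638915) had 2771, 3040 and 2453 in bladder, 520, 489 and 449 in intestine, and 1373 and 772 in lung. No library of a tissue reached into another tissue's range. Its log2 differences were -2.50 for intestine minus bladder (SE 0.19, limma adjusted p = 5.43e-06), -1.41 for lung minus bladder (SE 0.21, limma adjusted p = 0.000585) and 1.08 for lung minus intestine (SE 0.21, limma adjusted p = 0.00276). Sema3a (13175381 to 13652533), the semaphorin that collapses growth cones of sensory axons through Nrp1 and class A plexins, had 348, 426 and 372 in bladder, 85, 94 and 122 in intestine, and 215 and 128 in lung. Again the tissues did not overlap, with bladder highest and lung library 2 close to intestine library 3. On the log2 scale the difference was -1.93 for intestine minus bladder (SE 0.23, limma adjusted p = 0.000106) and -1.19 for lung minus bladder (SE 0.26, limma adjusted p = 0.00532). With the deposited scaling undone, and so depth uncorrected, the latter was -0.68 with a limma adjusted p of 0.0645. The higher level of Sema3a in lung than in intestine (log2 difference 0.74, SE 0.26, limma adjusted p = 0.0493) held in 8 of 19 alternatives and was lost when any library but intestine library 3 and lung library 2 was left out, with adjusted p of up to 0.282.

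Sema3e, Sema3f and Sema3g were higher in lung than in bladder. In intestine Sema3f and Sema3g were also higher than in bladder, while Sema3e had no call. Sema3e (chromosome 5, 14075290 to 14306703), which binds Plxnd1 without a neuropilin, had 24, 61 and 80 in bladder, 59, 39 and 86 in intestine, and 399 and 208 in lung. Lung library 1 was well above lung library 2, and both stood above every library of the other tissues. Fitted with limma, the log2 difference was 2.53 for lung minus bladder (SE 0.54, limma adjusted p = 0.00492) and 2.29 for lung minus intestine (SE 0.54, limma adjusted p = 0.0088). Without lung library 1 the latter was 1.82 with a limma adjusted p of 0.0683. Sema3f (chromosome 9, 107558699 to 107587674), a ligand of Nrp2, had 980, 876 and 1072 in bladder, 1189, 1336 and 1355 in intestine, and 2056 and 1903 in lung. The 3 tissues formed separate steps. The fitted difference in log2 was 1.02 for lung minus bladder (SE 0.11, limma adjusted p = 6.81e-05) and 0.62 for lung minus intestine (SE 0.11, limma adjusted p = 0.00148). The smaller step of 0.41 from bladder to intestine (SE 0.09, limma adjusted p = 0.00537) was not called with the scaling taken from genes of low read density, where it was 0.24 with a limma adjusted p of 0.0598. Sema3g (chromosome 14, 30939817 to 30952309), known from endothelium, had 36, 31 and 31 in bladder, 450, 408 and 492 in intestine, and 162 and 129 in lung. Intestine was highest and bladder lowest, with no overlap. The log2 difference of 3.74 for intestine minus bladder (SE 0.19, limma adjusted p = 7.98e-07) had the smallest p of all 62 genes in that comparison, and lung minus bladder was 2.12 (SE 0.22, limma adjusted p = 6.65e-05). Sema3b was lower in intestine and in lung than in bladder, the former in 12 of 19 alternatives, at 1715 ± 198 (SD, n = 3) in bladder, 1267 ± 127 (SD, n = 3) in intestine and 998.5 ± 211 (SD, n = 2) in lung. Both calls of Sema3b were lost with the deposited scaling undone, where depth is uncorrected.

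The mix of ligands within the family also differed. Levels of different genes were compared as reads per nucleotide (nt) of exon. Sema3c made up 51.1% to 56.1% of the class 3 reads per nt in bladder, 32.8% to 35.0% in intestine and 29.4% to 33.8% in lung. Sema3f made up 8.27% to 10.9% in bladder, 23.9% to 24.4% in intestine and 29.4% to 37.2% in lung. The ratio of Sema3c to Sema3f was 5.82, 6.54 and 4.70 in bladder, 1.36, 1.46 and 1.34 in intestine, and 1.15 and 0.79 in lung. These shares and ratios do not depend on the scaling between libraries.

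Neuropilins, the co-receptors of class 3 semaphorins and of vascular endothelial growth factor, did not differ between bladder and intestine by the test, and in lung they went in opposite directions. Nrp1 (chromosome 8, 129085085 to 129229844) had 2224, 1942 and 1916 in bladder, 1926, 2124 and 1805 in intestine, and 3366 and 3219 in lung. Nrp2 (chromosome 1, 62742444 to 62857854) had 2445, 1959 and 2096 in bladder, 2031, 2607 and 2078 in intestine, and 997 and 1138 in lung. For both genes bladder and intestine overlapped, while the lung libraries lay outside their range. For Nrp1 the log2 difference was 0.70 for lung minus bladder (SE 0.09, limma adjusted p = 0.000316) and 0.76 for lung minus intestine (SE 0.09, limma adjusted p = 0.000198). For Nrp2 it was -1.02 for lung minus bladder (SE 0.13, limma adjusted p = 0.000283) and -1.06 for lung minus intestine (SE 0.13, limma adjusted p = 0.000219). Per nt of exon, the ratio of Nrp1 to Nrp2 was 1.10, 1.20 and 1.11 in bladder, 1.15, 0.986 and 1.05 in intestine, and 4.09 and 3.42 in lung. The 7 lymphatic endothelium markers, a cell type known to carry Nrp2, summed to 520 to 740 ppm in bladder, 1240 to 1490 in intestine and 121 to 179 in lung, and their part in the Nrp2 result was not tested.

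**Figure D4:**
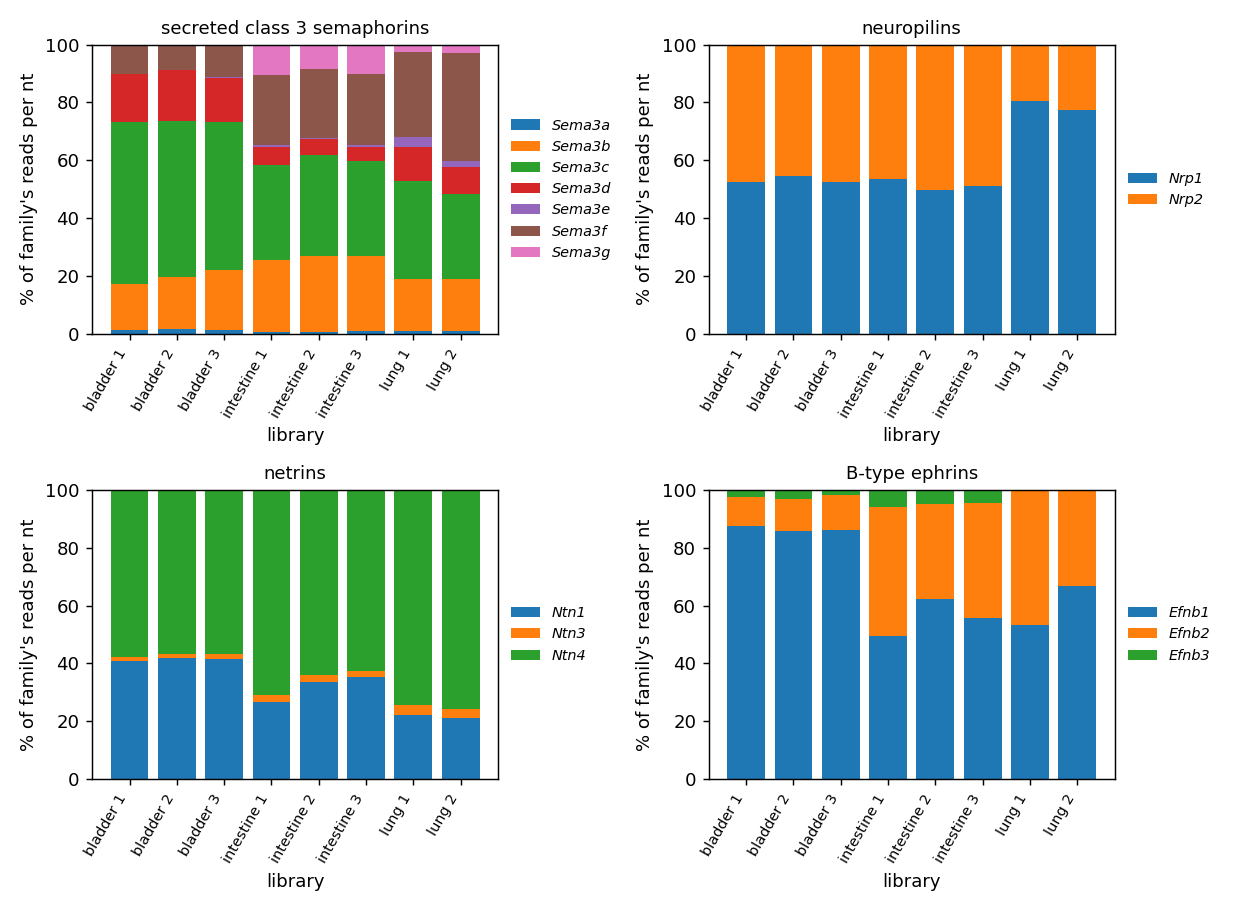
Share of each family's reads per nt of exon (vertical axes, percent) taken by each member in each of the 8 libraries, for class 3 semaphorins, neuropilins, netrins and B-type ephrins. The Nrp1 share is 77.4% to 80.3% in lung and 49.6% to 54.5% in the other libraries, and the Sema3c share is above 50% in bladder only.

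Plexins, the signalling receptors for semaphorins, were called higher more often than lower outside bladder. Of the 9 plexins, 5 (55.6%, against 28.7% of all genes) were higher and 0 (against 23.3%) were lower in intestine than in bladder, and 4 (44.4%, against 19.2%) were higher and 2 (22.2%, against 21.8%) were lower in lung than in bladder. Their summed level was 457 to 465 ppm in bladder, 697 to 757 in intestine and 658 to 760 in lung. Plxnd1 (chromosome 6, 115931772 to 115971966), the receptor of Sema3e, had 259, 171 and 135 in bladder, 1100, 1177 and 1088 in intestine, and 1349 and 1566 in lung. Bladder was far below both other tissues. In log2 units the difference was 2.62 for intestine minus bladder (SE 0.20, limma adjusted p = 7.14e-06) and 2.99 for lung minus bladder (SE 0.23, limma adjusted p = 1.15e-05). Plxnb1 (chromosome 9, 108924457 to 108948985), the receptor of Sema4d, had 160, 99 and 182 in bladder, 961, 1044 and 1006 in intestine, and 866 and 643 in lung. It showed the same order of bladder below the rest, with log2 differences of 2.81 for intestine minus bladder (SE 0.22, limma adjusted p = 6.72e-06) and 2.38 for lung minus bladder (SE 0.24, limma adjusted p = 6.23e-05). Plxnd1 is also a gene of vessels, and the endothelial marker Pecam1 was at 775.3 ± 178 in bladder (SD, n = 3), 2918 ± 82.5 in intestine (SD, n = 3) and 1441 ± 33.9 in lung (SD, n = 2), whose part in these values was not tested.

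Plxnc1 (chromosome 10, 94626728 to 94780697), the receptor of Sema7a, had 65, 60 and 46 in bladder, 109, 133 and 118 in intestine, and 385 and 328 in lung. The tissues formed separate steps with lung on top. The log2 difference was 2.63 for lung minus bladder (SE 0.24, limma adjusted p = 3.18e-05) and 1.56 for lung minus intestine (SE 0.24, limma adjusted p = 0.00075). The step of 1.07 from bladder to intestine (SE 0.21, limma adjusted p = 0.00232) was 0.27 with an adjusted p of 0.309 after quantile normalization. Plxnb2 (chromosome 15, 89039752 to 89064991), a receptor of class 4 semaphorins, was the most abundant plexin per length, with 3502, 3664 and 3384 in bladder, 4051, 4097 and 3807 in intestine, and 3521 and 2770 in lung. It was nearly level, and the call of lower in lung than in intestine (log2 difference -0.35, SE 0.10, limma adjusted p = 0.0174) was lost without intestine library 1, intestine library 2 or lung library 2, with adjusted p of 0.0586, 0.0614 and 0.101. Per nt of exon, the ratio of Plxnb2 to Plxnd1 was 12.8, 20.2 and 23.7 in bladder, 3.48, 3.29 and 3.31 in intestine, and 2.47 and 1.67 in lung.

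Plxnb3 (chromosome X, 72800696 to 72816120), a receptor of Sema5a, was low in all libraries. It had 20, 21 and 1 in bladder, 45, 83 and 58 in intestine, and 0 and 1 in lung, where it was not detectable above the limit of 3 reads. Intestine stood above the rest, and bladder library 3 lay with lung. The fitted log2 difference of -5.43 for lung minus intestine (SE 0.97, limma adjusted p = 0.00186) depends on the pseudocount and was -2.75 with a pseudocount of 10. The other two comparisons of Plxnb3 passed narrowly, with limma adjusted p of 0.0289 (intestine minus bladder) and 0.0456 (lung minus bladder). The first was lost when any intestine library was left out. The second held in 8 of 19 alternatives and was lost without any library other than bladder library 3. Plxna4 was higher than in bladder in both other tissues, at 173.7 ± 58.0 in bladder (SD, n = 3), 495.3 ± 56.8 in intestine (SD, n = 3) and 628.5 ± 279 in lung (SD, n = 2). Plxna2 was lower in lung, at 198.5 ± 84.1 (SD, n = 2) against 418.7 ± 81.1 in bladder (SD, n = 3) and 366.7 ± 59.0 in intestine (SD, n = 3). Both calls of Plxna2 were lost without lung library 2, and the one against intestine held in 11 of 19 alternatives. Plxna1 (835 to 1225 over the libraries) and Plxna3 (118 to 273) had no call.

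Membrane semaphorins, of classes 4 to 7, were mostly higher in intestine than in bladder. Of 13, 8 (61.5%, against 28.7% of all genes) were higher and 1 (7.69%, against 23.3%) was lower in that comparison, and 7 (53.8%, against 23.6%) were lower and 1 (7.69%, against 15.9%) was higher in lung than in intestine. Sema4g (chromosome 19, 44977540 to 44991836), a ligand of Plxnb2, had 11, 16 and 29 in bladder, 364, 448 and 444 in intestine, and 15 and 12 in lung. Every intestine library was more than 10 times above every other library. On the log2 scale the difference was 4.51 for intestine minus bladder (SE 0.36, limma adjusted p = 8.27e-06) and -4.86 for lung minus intestine (SE 0.40, limma adjusted p = 1.59e-05). Sema4f (chromosome 6, 82888866 to 82916750), a class 4 semaphorin known from nervous tissue, had 1, 0 and 3 in bladder, 40, 105 and 65 in intestine, and 7 and 1 in lung. The bladder libraries were all at or below the limit of 3 reads, so the fitted log2 difference of 5.04 for intestine minus bladder (SE 0.70, limma adjusted p = 0.000258) depends on the pseudocount and was 2.75 with a pseudocount of 10.

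Sema4d (chromosome 13, 51839565 to 51947783), the ligand of Plxnb1, had 41, 38 and 81 in bladder, 354, 338 and 304 in intestine, and 140 and 55 in lung. Intestine stood alone, and lung overlapped with bladder. Fitted with limma, the log2 difference was 2.70 for intestine minus bladder (SE 0.39, limma adjusted p = 0.000313) and -1.90 for lung minus intestine (SE 0.43, limma adjusted p = 0.00693), and the latter was -1.24 with an adjusted p of 0.0574 without lung library 2. Sema4a (chromosome 3, 88343266 to 88368489), a class 4 semaphorin known from immune cells, had 547, 404 and 440 in bladder, 970, 1136 and 1090 in intestine, and 173 and 149 in lung. Intestine was highest and lung lowest, with no overlap. The fitted difference in log2 was 1.21 for intestine minus bladder (SE 0.14, limma adjusted p = 8.01e-05), -1.51 for lung minus bladder (SE 0.16, limma adjusted p = 6.66e-05) and -2.72 for lung minus intestine (SE 0.16, limma adjusted p = 1.67e-06). The 10 general epithelial markers followed the same order, with 1570 to 1660 ppm in intestine, 349 to 566 in bladder and 68.9 to 111 in lung. None of their defining markers was at 0, and their part in the Sema4a and Sema4g results was not tested. The sum of the 11 leukocyte markers did not follow that order. It was 338 to 584 ppm in bladder, 283 to 319 in intestine and 191 to 209 in lung. Singly these markers were split, with 4 higher and 5 lower in intestine than in bladder. In lung 1 was higher and 5 were lower than in intestine. Their part was not tested either.

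Sema7a (chromosome 9, 57847395 to 57870148), anchored by a lipid and bound by Plxnc1 and integrins, had 16, 14 and 22 in bladder, 187, 174 and 171 in intestine, and 58 and 125 in lung. Bladder was below all other libraries, and the lung libraries differed by a wide margin. In log2 units the difference was 3.30 for intestine minus bladder (SE 0.33, limma adjusted p = 3.6e-05) and 2.26 for lung minus bladder (SE 0.37, limma adjusted p = 0.00118). Sema5a (chromosome 15, 32244956 to 32696487), a ligand of Plxnb3, had 457, 452 and 434 in bladder, 704, 677 and 754 in intestine, and 1362 and 920 in lung. It rose in steps from bladder to lung, with log2 differences of 0.67 for intestine minus bladder (SE 0.14, limma adjusted p = 0.00288) and 1.32 for lung minus bladder (SE 0.15, limma adjusted p = 0.000145). Its relative Sema5b (chromosome 16, 35361515 to 35485102) had 33, 24 and 0 in bladder, 63, 44 and 58 in intestine, and 145 and 140 in lung. The tissues did not overlap, but bladder library 3 was far from the others. The log2 difference of 3.92 for lung minus bladder (SE 1.25, limma adjusted p = 0.0318) held in 10 of 19 alternatives. It was 2.30 without bladder library 3 (adjusted p = 0.00131), 4.84 and 4.62 without bladder library 1 or 2, and was lost without any intestine or lung library. Sema6b (chromosome 17, 56430085 to 56447343), a ligand of class A plexins, had 318, 250 and 303 in bladder, 236, 239 and 344 in intestine, and 76 and 147 in lung. It was lowest in lung, with a log2 difference of -1.44 for lung minus bladder (SE 0.29, limma adjusted p = 0.00371). Among the rest, Sema4b was higher than in bladder in both other tissues, at 61.67 ± 21.2 in bladder (SD, n = 3), 213.3 ± 27.6 in intestine (SD, n = 3) and 163 ± 75.0 in lung (SD, n = 2), and its call in lung was lost without lung library 2. Sema6a was lower in lung than in both others, at 176 ± 63.6 (SD, n = 2) against 440 ± 63.3 in bladder (SD, n = 3) and 582 ± 63.7 in intestine (SD, n = 3). Sema6c was highest in bladder at 970.3 ± 126 (SD, n = 3). Both of its calls against bladder were lost with the deposited scaling undone, where depth is uncorrected. Sema4c ranged from 774 to 995 with no call. Sema6d was highest in intestine at 388.3 ± 39.6 (SD, n = 3), but its call against lung held in 11 of 19 alternatives and was lost without intestine library 1, intestine library 2 or lung library 2.

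SLIT ligands were highest in bladder. Slit3 (chromosome 11, 35012051 to 35599334) took 93.2% to 96.5% of the family's reads per nt in every library. It had 8514, 8870 and 8146 in bladder, 4618, 4839 and 4599 in intestine, and 3998 and 3199 in lung. The 3 tissues formed separate steps downwards. The log2 difference was -0.86 for intestine minus bladder (SE 0.08, limma adjusted p = 1.92e-05), -1.25 for lung minus bladder (SE 0.09, limma adjusted p = 7.54e-06) and -0.39 for lung minus intestine (SE 0.09, limma adjusted p = 0.00689), the last of which was -0.27 with an adjusted p of 0.0815 with the deposited scaling undone. Slit2 was also highest in bladder, at 1384 ± 110 (SD, n = 3), against 921 ± 70.3 in intestine (SD, n = 3) and 875.5 ± 125 in lung (SD, n = 2). Both of its calls were lost with the deposited scaling undone, where depth is uncorrected. The limma adjusted p was then 0.213 in intestine and 0.381 in lung. Slit3 and Slit2 are also expressed by fibroblasts, whose markers were highest in bladder as given above and whose part in these values was not tested.

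ROBO receptors, which bind SLIT proteins, were called in both directions. Robo4 (chromosome 9, 37313193 to 37326411), the ROBO of endothelial cells, had 129, 145 and 193 in bladder, 589, 764 and 971 in intestine, and 134 and 120 in lung. Intestine stood above both other tissues, which overlapped. On the log2 scale the difference was 2.30 for intestine minus bladder (SE 0.22, limma adjusted p = 2.35e-05) and -2.57 for lung minus intestine (SE 0.24, limma adjusted p = 3.57e-05). The endothelial markers Pecam1 and Cdh5 were highest in intestine too. In lung Robo4 was at the level of bladder. Of the 14 endothelial markers, which include Robo4, 9 were higher and 2 lower in lung than in bladder. The part of endothelial cells in the Robo4 values was not tested. Robo2, a neuronal ROBO, was at 634 ± 31.3 in bladder (SD, n = 3), 1134 ± 100 in intestine (SD, n = 3) and 390 ± 90.5 in lung (SD, n = 2), and all 3 comparisons passed. The call of Robo2 between bladder and lung was lost with the deposited scaling undone and depth uncorrected (limma adjusted p = 0.319). Robo1 was lower than in bladder in both other tissues, at 411.3 ± 27.8 in bladder (SD, n = 3), 212 ± 2.00 in intestine (SD, n = 3) and 305 ± 32.5 in lung (SD, n = 2). The call in lung held in 11 of 19 alternatives and was lost without lung library 2 or any bladder library. The difference turned to 0.08 with the deposited scaling undone, where depth is uncorrected. Robo3 had between 0 and 2 in bladder, 6 to 20 in intestine, and 0 and 10 in lung.

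Netrins are laminin-related ligands. Ntn4 (chromosome 10, 93476543 to 93583069), a netrin of basement membranes, had 2286, 2198 and 2061 in bladder, 4159, 3577 and 3511 in intestine, and 4274 and 3823 in lung. Bladder was below both other tissues, which overlapped. Fitted with limma, the log2 difference was 0.78 for intestine minus bladder (SE 0.08, limma adjusted p = 4.37e-05) and 0.89 for lung minus bladder (SE 0.09, limma adjusted p = 6.38e-05). Ntn1, the classic floor plate netrin, was lower in lung than in the other tissues. It was at 2656 ± 107 in bladder (SD, n = 3), 3036 ± 351 in intestine (SD, n = 3) and 1970 ± 234 in lung (SD, n = 2). Its call for lung minus bladder was lost without lung library 2. That difference turned to 0.08 with the deposited scaling undone, where depth is uncorrected. Per nt of exon, the ratio of Ntn4 to Ntn1 was 1.41, 1.36 and 1.37 in bladder, 2.64, 1.90 and 1.78 in intestine, and 3.36 and 3.56 in lung. Ntn3 was higher than in bladder in both other tissues, but 1715 nt of its span overlap Tbc1d24 on the same strand, so its reads are uncertain.

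UNC5 receptors, through which netrins repel, were lowest in intestine or lung. Unc5c (chromosome 3, 141170977 to 141540685) had 293, 294 and 315 in bladder, 33, 45 and 7 in intestine, and 248 and 203 in lung. Intestine was far below both other tissues, and intestine library 3 was lowest. The fitted difference in log2 was -3.70 for intestine minus bladder (SE 0.55, limma adjusted p = 0.000402) and 3.28 for lung minus intestine (SE 0.62, limma adjusted p = 0.00246), and these were -2.93 and 2.51 without intestine library 3. Unc5b (chromosome 10, 60598372 to 60667360), also known from arterial endothelium, had 515, 554 and 605 in bladder, 157, 200 and 191 in intestine, and 418 and 678 in lung. It was likewise lowest in intestine, with log2 differences of -1.61 for intestine minus bladder (SE 0.19, limma adjusted p = 8.74e-05) and 1.55 for lung minus intestine (SE 0.21, limma adjusted p = 0.000375). The summed endothelial markers were highest in intestine, and the part of endothelial cells in the Unc5b values was not tested. Unc5a (chromosome 13, 55097224 to 55153831) was the most abundant UNC5 per length on average over the 3 tissues. It had 441, 542 and 757 in bladder, 354, 386 and 503 in intestine, and 200 and 415 in lung. Lung was below bladder, and the log2 difference of -0.97 (SE 0.32, limma adjusted p = 0.037) held in 9 of 19 alternatives. It was lost without any library other than bladder library 1 and lung library 2, and fell in size to -0.45 with an adjusted p of 0.275 without lung library 1.

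A-type ephrins, held in the membrane by a lipid anchor, split by tissue. Efna1 (chromosome 3, 89179040 to 89188449) was the most abundant ephrin per length on average over the 3 tissues. It had 718, 579 and 772 in bladder, 1110, 1034 and 1111 in intestine, and 658 and 971 in lung. Intestine was above the rest, with a log2 difference of 0.66 for intestine minus bladder (SE 0.15, limma adjusted p = 0.00561), while lung minus intestine did not pass (limma adjusted p = 0.0719). Efna5 (chromosome 17, 62911179 to 63188312), a ligand of EPHA3 and EPHA7, had 1172, 1094 and 1119 in bladder, 423, 573 and 555 in intestine, and 250 and 320 in lung. The tissues formed separate steps downwards, with log2 differences of -1.14 for intestine minus bladder (SE 0.14, limma adjusted p = 0.000137) and -1.99 for lung minus bladder (SE 0.16, limma adjusted p = 1.5e-05). Efna2 (chromosome 10, 80015316 to 80025844) had 445, 628 and 560 in bladder, 162, 183 and 190 in intestine, and 357 and 512 in lung. It was lowest in intestine, and bladder and lung overlapped. Its log2 difference was -1.59 for intestine minus bladder (SE 0.18, limma adjusted p = 7.37e-05) and 1.26 for lung minus intestine (SE 0.20, limma adjusted p = 0.00101). Efna3 (chromosome 3, 89221206 to 89230272) was low, with 9, 13 and 14 in bladder, 38, 64 and 48 in intestine, and 7 and 23 in lung. Intestine was highest, with a log2 difference of 1.96 for intestine minus bladder (SE 0.47, limma adjusted p = 0.00653), which was 1.08 with an adjusted p of 0.0766 after quantile normalization. Over 3469 nt Efna3 overlaps the more abundant Gm15998 on the opposite strand, so its reads are uncertain. The lower level of Efna3 in lung than in intestine (-1.85, SE 0.53, limma adjusted p = 0.0209) was lost without intestine library 2, intestine library 3 or lung library 1, with adjusted p of 0.0728, 0.0556 and 0.130. Efna4 was higher in intestine than in bladder, at 67.0 ± 37.0 in bladder (SD, n = 3), 149.3 ± 15.6 in intestine (SD, n = 3) and 111 ± 48.1 in lung (SD, n = 2), a call that held in 13 of 19 alternatives and was lost without bladder library 1 or 2 or any intestine library.

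B-type ephrins, which cross the membrane, changed their mix. Efnb1 was at 1495 ± 97.6 in bladder (SD, n = 3), 922.7 ± 116 in intestine (SD, n = 3) and 1306 ± 138 in lung (SD, n = 2), and was lower in intestine than in both others. Its call against bladder was lost with the deposited scaling undone and depth uncorrected (limma adjusted p = 0.0893). The log2 difference of Efnb1 for lung minus intestine was 0.50, and 0.40 without lung library 2. Efnb2, the ephrin of arteries and mural cells, was at 376.7 ± 53.1 in bladder (SD, n = 3), 1282 ± 183 in intestine (SD, n = 3) and 1741 ± 516 in lung (SD, n = 2). It was higher than in bladder in both other tissues, with log2 differences of 1.76 (SE 0.18, limma adjusted p = 3.27e-05) and 2.18 (SE 0.20, limma adjusted p = 3.04e-05), as were 9 and 8 of the 12 mural markers. The part of mural cells was not tested. Per nt of exon, the ratio of Efnb1 to Efnb2 was 8.70, 7.96 and 7.17 in bladder, 1.11, 1.90 and 1.40 in intestine, and 1.14 and 2.02 in lung. Efnb3 (chromosome 11, 69444918 to 69451031) had 41, 49 and 30 in bladder, 89, 74 and 71 in intestine, and 1 and 7 in lung. Lung was below every other library, with fitted log2 differences of -3.33 for lung minus bladder (SE 0.56, limma adjusted p = 0.00131) and -4.30 for lung minus intestine (SE 0.56, limma adjusted p = 0.000292). Those values depend on the pseudocount, being -1.85 and -2.68 with a pseudocount of 10. Without lung library 1 they were -2.33 and -3.30, and without lung library 2 they were -4.33 and -5.30.

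EPHA receptors, which bind mainly A-type ephrins, included the bladder genes Epha3 and Epha7. Epha3 (chromosome 16, 63363897 to 63684538) had 1791, 1785 and 1508 in bladder, 383, 437 and 441 in intestine, and 777 and 524 in lung. The tissues did not overlap, with bladder far above the others. In log2 units the difference was -2.01 for intestine minus bladder (SE 0.15, limma adjusted p = 5.28e-06) and -1.40 for lung minus bladder (SE 0.17, limma adjusted p = 0.000157). The step of 0.60 between lung and intestine (SE 0.17, limma adjusted p = 0.0178) was lost without intestine library 1 or lung library 1, with adjusted p of 0.0625 and 0.0949. Epha7 (chromosome 4, 28813131 to 28967499) had 453, 442 and 516 in bladder, 186, 84 and 99 in intestine, and 174 and 102 in lung. Intestine and lung overlapped below bladder. The log2 difference was -2.01 for intestine minus bladder (SE 0.31, limma adjusted p = 0.000478) and -1.81 for lung minus bladder (SE 0.34, limma adjusted p = 0.0026). Epha2, an EPH receptor of epithelia, was at 263.7 ± 45.5 in bladder (SD, n = 3), 521 ± 21.2 in intestine (SD, n = 3) and 116.5 ± 19.1 in lung (SD, n = 2), the order of the epithelial markers. Epha1 was higher than in bladder in both other tissues, but 1727 nt of its span overlap the far more abundant Zyx on the opposite strand, so its reads are uncertain. The call of Epha1 in lung held in 11 of 19 alternatives and was lost without any bladder or lung library or without intestine library 2, and the one in intestine was lost without bladder library 2, intestine library 1 or intestine library 2. Epha5 was between 0 and 5 in bladder, 22 to 35 in intestine, and 27 and 1 in lung. Epha4 ranged from 81 to 303 over the libraries with no call.

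EPHB receptors, which bind B-type ephrins, were lower in lung than in intestine for 4 of 5 genes (80.0%, against 23.6% of all genes). Ephb4 (chromosome 5, 137348371 to 137376931), the partner of Efnb2 known from veins, was the most abundant EPH receptor per length. It had 1922, 1723 and 2088 in bladder, 2714, 2730 and 2967 in intestine, and 1832 and 1853 in lung. Intestine stood above both other tissues, which overlapped, with log2 differences of 0.56 for intestine minus bladder (SE 0.08, limma adjusted p = 0.000312) and -0.60 for lung minus intestine (SE 0.09, limma adjusted p = 0.000594). Ephb2 (chromosome 4, 136374850 to 136563299) had 383, 412 and 394 in bladder, 351, 450 and 389 in intestine, and 139 and 153 in lung. Bladder and intestine overlapped, and lung was well below both. On the log2 scale the difference was -1.44 for lung minus bladder (SE 0.15, limma adjusted p = 7.83e-05) and -1.43 for lung minus intestine (SE 0.15, limma adjusted p = 7.64e-05). Ephb3 was lower in lung than in the other tissues, at 1358 ± 234 (SD, n = 2) against 1741 ± 86.9 in bladder (SD, n = 3) and 1793 ± 130 in intestine (SD, n = 3). Its calls held in 10 (against bladder) and 12 (against intestine) of 19 alternatives, and both were lost without lung library 2. The first was also lost without bladder library 1 or 3, and the second without intestine library 2 or 3. For Ephb3, lung minus bladder turned to 0.14 with the deposited scaling undone, where depth is uncorrected. Ephb1 was highest in intestine, at 109.7 ± 19.1 (SD, n = 3) against 23.33 ± 8.33 in bladder (SD, n = 3) and 40.0 ± 24.0 in lung (SD, n = 2), and its call against lung was lost without lung library 2 or any intestine library. Ephb6, whose kinase domain is inactive, was lowest in intestine, at 366.7 ± 93.9 (SD, n = 3), although its call against bladder held in 12 of 19 alternatives and was lost without bladder library 2 or 3 or without intestine library 1 or 3.

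Ranked by reads per nt of exon, the leading genes changed with the tissue. In bladder Slit3 led with 1.11 to 1.22 reads per nt, followed by Sema3c with 0.866 to 0.884 and Ntn4 with 0.469 to 0.503, and none of these ranges overlapped. The next in order, Plxnb2, Efnb1, Ntn1, Ephb4 and Efna1, overlapped each other. In intestine Ntn4 led with 0.980 to 1.21, followed by Slit3 with 0.792 to 0.918, and then by Ephb4 and Efna1, whose ranges overlapped. In lung Ntn4 led with 1.18 to 1.39, followed by Slit3 with 0.609 to 0.802 and Efna1 with 0.438 to 0.613, and the last pair overlapped. Slit3 and Ntn4 were the 2 genes of the 64 with a library of at least 1 read per nt. The 339 genes of the whole table that averaged 1 read per nt or more had medians of -0.40 (intestine minus bladder) and -0.42 (lung minus bladder) on the log2 scale, below the 0.06 and 0.00 of all genes tested.

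**Figure D5:**
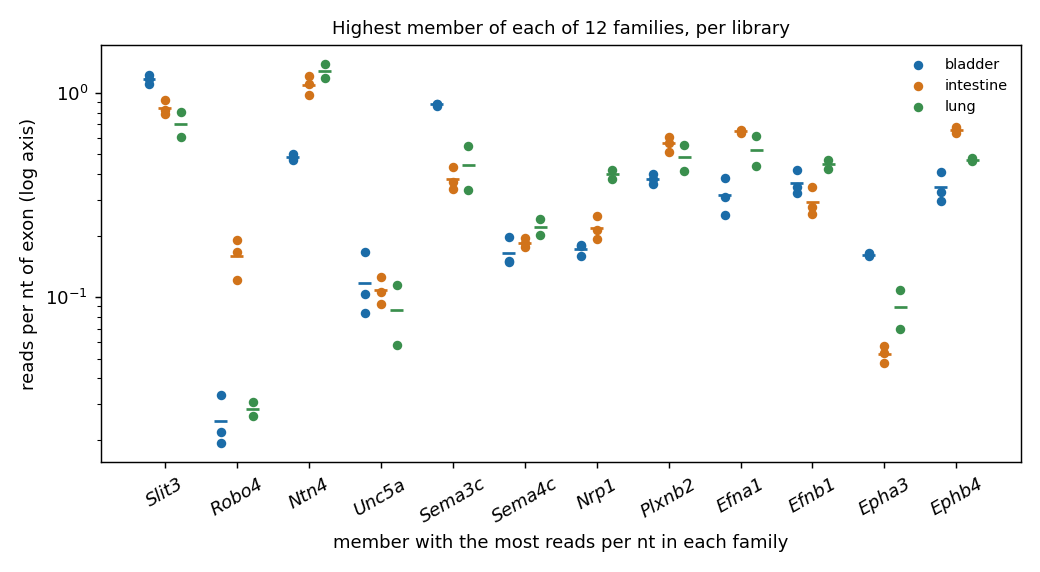
Reads per nt of exon (vertical axis, log scale) of the member with the most reads per nt in each of 12 families, with 1 point per library and a bar at the tissue mean. Slit3 and Sema3c are highest in bladder, Ntn4 is lowest there, and Robo4 in intestine stands apart from the other tissues.

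Other genes of the same pathways, 64 tested genes for netrin, semaphorin, SLIT and EPH signalling, were called in both directions. In intestine 19 were higher and 21 lower than in bladder, in lung 16 were higher and 23 lower than in bladder, and in lung 18 were higher and 21 lower than in intestine. Their shares, 29.7% and 32.8%, 25.0% and 35.9%, and 28.1% and 32.8%, stand beside the background shares given above. Flrt3, a membrane protein that binds UNC5 receptors, had means of 3591 ± 461 in bladder (SD, n = 3), 613 ± 113 in intestine (SD, n = 3) and 63 ± 18.4 in lung (SD, n = 2), a log2 difference of -5.83 for lung minus bladder (limma adjusted p = 1.9e-07). Its relative Flrt2 was also highest in bladder, with -2.01 for intestine minus bladder (limma adjusted p = 1.12e-06). Rnd1, a small GTPase that binds plexins, was at 71.0 ± 20.3 in bladder (SD, n = 3), 1146 ± 33.6 in intestine (SD, n = 3) and 364.5 ± 53.0 in lung (SD, n = 2), in the order that Sema3g showed. Fitted with limma, the log2 difference was 4.03 for intestine minus bladder (limma adjusted p = 6.47e-07). Mical2, an enzyme that oxidizes actin, was higher than in bladder in both other tissues, with log2 differences of 2.92 (limma adjusted p = 2.13e-06) and 3.13 (limma adjusted p = 5.02e-06). L1cam, a neural adhesion molecule and partner of Nrp1, was at 114 ± 18 in bladder (SD, n = 3), 853.3 ± 70.2 in intestine (SD, n = 3) and 40.0 ± 17 in lung (SD, n = 2), and the enteric neuron and glial markers, whose part was not tested, were likewise highest in intestine. Plxdc2, a membrane protein with a plexin-like domain, and the kinase Fyn were highest in bladder, with -1.48 for intestine minus bladder (limma adjusted p = 2.8e-06) and -1.25 for lung minus bladder (limma adjusted p = 4.93e-06). The actin regulator Enah was higher in lung than in bladder by 2.08 (limma adjusted p = 3.03e-06). The adaptor Grb7 and the kinase Fes were lower in lung than in intestine, with log2 differences of -6.92 (limma adjusted p = 4.11e-06) and -2.14 (limma adjusted p = 2.5e-05).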

How the data were processed

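RNA of 8 libraries was measured by sequencing. Per the labels' protocols, libraries were made with the SMART-Seq v4 kit from up to 10 ng of RNA. The deposited table holds whole numbers treated as a score: per the values, read counts that the authors multiplied by a constant per library and rounded. The submitters' processing notes name build mm39, DESeq2 1.36.0, featureCounts 2.0.4, Picard 3.0.0, STAR 2.7.10a and Trimmomatic 0.39, with no roles. Annotation release, strandedness and any filter: not given in the sources used here.

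Reads were reconstructed from the spacing of the values, with 9.722 to 13.62 M per library, and divided by exon length (GENCODE M21, 96.8% of gene IDs) for reads per nt. The limit of 3 reads at a count of 0 covers counting error only, since PCR copies are not separate molecules. limma 3.58.1 (R 4.3.3) was run with an intensity trend on log2(value + 1), a mean per tissue and 8 libraries, on 18097 genes with at least 10 in 2 libraries, and 3552 genes were not tested. The added 1 shrinks the log2 differences of low genes, while a single library near 0 can enlarge them. For Sema5b, lung minus bladder was 3.92 with and 2.30 without bladder library 3, which was at 0. The scripts were tested on simulated data.

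The rule for the genes reads symbols and no value, but these families, the lists and the tests were chosen with earlier results of these data known. Values of every library are given for 35 genes: per comparison and direction the 6 of largest difference that passed with no overlap and a mean of at least 50 in the higher tissue, up to 6 per tissue that were highest there, and the most abundant per family. Up to 4 other pathway genes per comparison were named by smallest p. The other genes are given by means ± SD or ranges. Alternatives were other scalings, pseudocounts of 0.5 and 10, no filter or at least 50, no trend, 2 tissues per fit, a replicate block and leaving out each library. Coordinates are those of the deposited table and span whole genes. Promoters are from RefSeq, GRCm38.p6. Of the 64 genes, 21 overlap another gene's span, 14 of them on the opposite strand and 4 with a protein-coding gene (Epha1, Ntn3, Ephb4 and Unc5a). Protein sequences were not used here, and 1 gene list and 1 marker gene are not reported here.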

Additional observations from a re-analysis of the deposited data

How the results depend on the processing

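Of 77 called differences of the genes whose libraries are all given, 1392 of 1461 alternatives kept the direction and the call and 69 kept the direction only, and none reversed. Among all called genes, 32 of 45 between bladder and intestine, 26 of 40 between bladder and lung and 25 of 38 between intestine and lung were called under every alternative. Undoing the deposited scaling, and with it the correction for depth, moved the median of all genes to 0.45 (intestine minus bladder) and 0.48 (lung minus bladder). Equal library totals moved it to 0.15 and 0.12. Quantile normalization and the scaling from genes of low read density moved it to -0.12 and -0.10 for intestine minus bladder, and to 0.15 and 0.12 for lung minus intestine. With the deposited scaling undone, 25 of the axon guidance genes were higher in lung than in bladder and 14 were lower (beside 7950 and 1907 of all genes), 6 were highest in bladder, and the other pathway genes numbered 32 higher and 13 lower in intestine (8320 and 1933 of all genes) and 28 higher and 13 lower in lung than in bladder. Without a trend in limma 3 genes were highest in lung. Leaving out a library gave 3 to 6 genes highest in lung, 9 to 12 in bladder and 9 to 14 in intestine. Where this left lung with 1 library, that library was assumed to vary like the other tissues. The share of all genes highest in a tissue was not computed under the alternatives, so these counts have no background beside them. Deviations from the tissue mean had correlations of -0.03 to 0.06 between libraries of the same number. With only 2 or 3 libraries per tissue, this cannot show whether the numbers pair them. With the replicate block, 30 genes were higher and 16 lower in intestine than in bladder (5058 and 3982 of all genes). In lung 14 were higher and 22 lower than in bladder (3115 and 3671 of all genes), and 14 and 22 than in intestine (2474 and 4022 of all genes). The 2 lung libraries and the low values of Plxnb3, Sema4f, Efnb3 and Sema5b limit the precision.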
